A study of Drosophila melanogaster with 12 samples.

Results

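The X chromosome of Drosophila melanogaster S2 cells was examined for enrichment of dBigH1 and H1 by chromatin immunoprecipitation and sequencing. Its members were every peak that the 8 deposited peak lists place on X, positioned by midpoint: 487 of the 19365 peaks in all. S2 is an established male cell line from late embryos. The groups were cells labelled as induced with 1 mM to express wild-type dBigH1 (induced cells) and wild-type S2 cells (control cells), both profiled with polyclonal antibodies, one to dBigH1 and the other to H1, in 2 libraries per antibody and condition. The treatment protocol, 1 mM copper sulphate for 24 h, is worded alike for every sample, so whether control cells received copper is not given. The growth protocol names FLAG-tagged dBigH1 lines kept under hygromycin without saying which samples they are, and nothing says that replicates came from separate cultures.

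Linker histones bind the DNA that enters and leaves the nucleosome and favour compact chromatin. H1 is the somatic linker histone of the fly, and dBigH1 takes its place in the early embryo and the germ line. In male flies X is dosage compensated: the MSL complex binds active genes on X and acetylates histone H4, which raises their transcription. For every peak the lists give its limits and a score. Scores are the authors' own values, in files of this caller (MACS) 10 times the negative log10 of a p-value, and none was below 50. They were used to rank and filter peaks within a list and were not compared between lists. The lists carry no read counts, so the depth behind a peak is unknown. Peaks are named after the antibody, and whether those of the dBigH1 antibody in wild-type cells mark dBigH1 itself was not tested.

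Peaks of dBigH1 were almost absent from X in induced cells and plentiful there in control cells. The induced lists had 2 and 3 X peaks of 196 and 238, and the control lists 114 and 115 of 599 and 719. The induced and control libraries did not overlap, and the control replicates differed by a single peak. Mean X peak number was 2.5 ± 0.707 in induced and 114.5 ± 0.707 in control cells (SD, n = 2), a log2 ratio of -5.55. X held 1.02% and 1.26% of the induced peaks (95% exact binomial intervals 0.124 to 3.64 and 0.261 to 3.64), against 19.0% and 16.0% of the control peaks (16.0 to 22.4 and 13.4 to 18.9). The intervals cover counting error only. The difference of 16.4 percentage points was larger than the spread between replicates, at p = 0.33 in an exact permutation test (two-sided), which is the lowest value that 2 libraries against 2 allow.

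The contrast in numbers was also present in lists of equal length. When all dBigH1 lists were reduced to their 196 highest scores, X held 2 and 3 peaks of the induced lists and 54 and 51 of the control lists. Relative to 2L, 2R, 3L and 3R together (the large autosome arms), X carried 0.0466 and 0.0573 times as many dBigH1 peaks per Mb in the induced libraries and 1.16 and 0.924 times as many in the control libraries. In control cells X therefore carried about as many called peaks per Mb as the arms, on either side of a ratio of 1. The log2 ratio of the relative densities, induced over control, was -4.32 (exact permutation p = 0.33). A low number of induced dBigH1 peaks was not confined to X. On 2R the induced lists had 8 and 13 (0.378 and 0.615 per Mb), and the control lists 79 and 77 (3.74 and 3.64 per Mb). X had fewer per Mb than 2R in the induced lists, 0.0922 and 0.138. The induced lists had more peaks on 2L (66 and 91), 3L (78 and 86) and 3R (39 and 43).

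H1 peaks, by contrast, were sparse on X in both conditions. Without read counts this describes called peaks and not the amount of H1 on X. The induced H1 lists had 43 and 67 X peaks of 3545 and 5182, and the control lists 58 and 85 of 3814 and 5072. The ratio of H1 peaks per Mb on X to those on the arms was 0.0606 and 0.0652 in induced libraries and 0.0749 and 0.0821 in control libraries. Each induced library lay below each control library in this ratio, by 0.32 on the log2 scale (exact permutation p = 0.33), and the X share of H1 peaks was 1.25% ± 0.0565 in induced and 1.60% ± 0.110 in control cells (SD, n = 2). The H1 peak numbers themselves overlapped between conditions (log2 ratio -0.39, exact permutation p = 0.667). Within control cells the relative density of dBigH1 on X exceeded that of H1 by 3.72 on the log2 scale, and within induced cells it was lower by 0.28 on that scale, both at the smallest possible p of 0.33. The second of these rests on 5 dBigH1 peaks and was 0.0312 with lists of equal length. With peaks closer than 1000 bp joined, the H1 ratios of induced and control libraries overlapped (exact permutation p = 0.667).

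**Figure D1:**
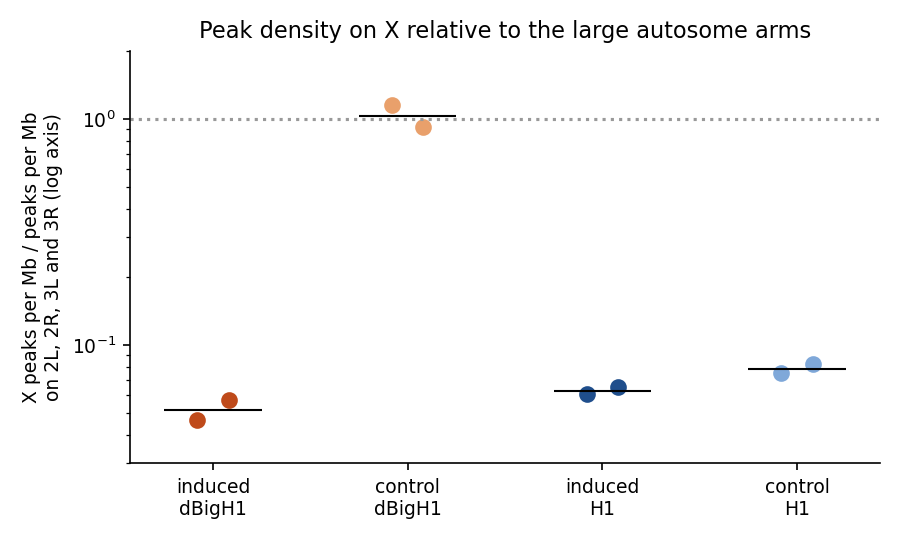
Peaks per Mb on X divided by peaks per Mb on 2L, 2R, 3L and 3R, on a log axis, for the 2 libraries of each antibody and condition (points) with their geometric mean (line). Control dBigH1 libraries sit at 1.16 and 0.924, near the dotted line of equal density, and the other 6 libraries lie between 0.0466 and 0.0821.

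Control dBigH1 peaks were spread along the whole of X. They began at X:946369 and X:649663 and ended at 21.7 Mb in both lists, and every one of the 22 windows of 1 Mb held at least 1 peak in each list, with a median of 4 per window. The most filled windows were the one from 3 Mb, with 15 and 10 peaks, the one from 13 Mb, with 11 in each list, and the one from 19 Mb, with 9 and 11. The window from 8 Mb had 1 peak in each list. Window counts of the 2 control lists had a Spearman rho of 0.90 and a Pearson r of 0.91 over 22 windows, given as a description, since the windows share a chromosome and the libraries a cell line. The median distance from one peak to the next was 98.4 and 93.8 kb, and 20 of 113 and 21 of 114 such gaps were shorter than 10 kb, so a minority of peaks sat in close pairs or groups. The largest gaps were 999 kb in the first list, ending at 8.60 Mb, and 930.4 kb in the second, starting there.

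**Figure D2:**
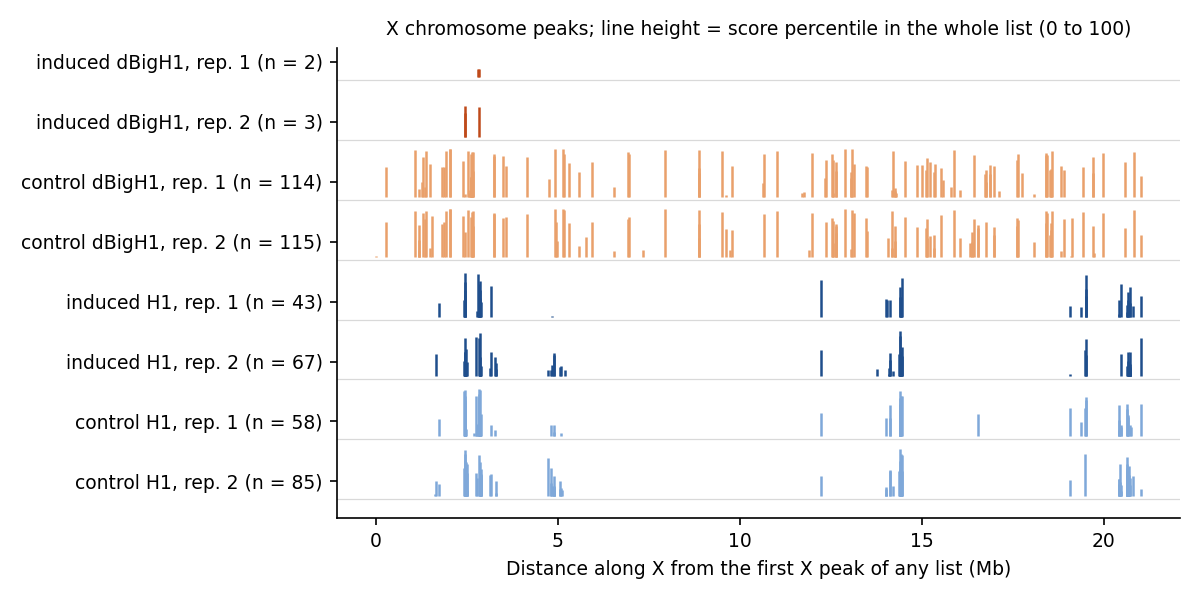
Positions of all X peaks in the 8 lists, as distance in Mb from the first X peak of any list, with line height showing the percentile of the peak's score within its whole list. The 114 and 115 control dBigH1 peaks run along the chromosome, H1 peaks stand in a few groups shared by the 4 lists, and the 2 and 3 induced dBigH1 peaks fall in 2 neighbouring groups of H1 peaks in the window from 3 Mb.

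On X the control dBigH1 peaks were narrow. Their median width was 1178.5 and 1169 bp, against 1819 and 1676 bp on the autosome arms, and in both lists X had the lowest median of the 5 large arms, the next being 3R with 1608 and 1424 bp. The X peaks ranged from 833 to 7876 bp in the first list and from 728 to 10267 bp in the second. The mean log2 width on X was lower than on the arms by 0.44 in the first list and by 0.27 in the second, so that X peaks averaged 0.735 and 0.828 times the width of arm peaks. The difference had the same direction in both lists, and an exact sign-flip test over 2 libraries cannot give a p below 0.5. With lists of equal length the mean difference was -0.17, against -0.36 in the full lists. It was seen at both score levels: peaks of 100 or more had a median width of 1261 and 1334.5 bp on X and 1824 and 1686.5 bp on the arms, and those under 100 had 1123 and 1064 bp on X and 1819 and 1675.5 bp on the arms.

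The same peaks also scored high within their lists. X peaks averaged the 62.0 and 64.3 percentile of their own list and arm peaks the 48.6 and 47.5 percentile, a mean difference of 15.1 points (13.4 and 16.8 in the 2 lists; exact sign-flip permutation p = 0.5, the smallest possible). Among peaks of 100 or more the mean difference was 8.40 points. The arm nearest to X was 2R, whose peaks averaged the 56.0 and 57.6 percentile. A score of 100 or more was reached by 71 of 114 and 70 of 115 X peaks (62.3% and 60.9%), beside 44.1% and 37% of the whole lists. X supplied 44 of the 150 and 50 of the 180 best-scoring peaks (29.3% and 27.8%) but 18 of the 149 and 15 of the 179 lowest-scoring ones (12.1% and 8.38%). The highest score, 3100, was tied by 5 peaks in each control list, of which 3 lay on X in both. The same top value in both lists may be a ceiling of the score, and it gives no order among these peaks.

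**Figure D3:**
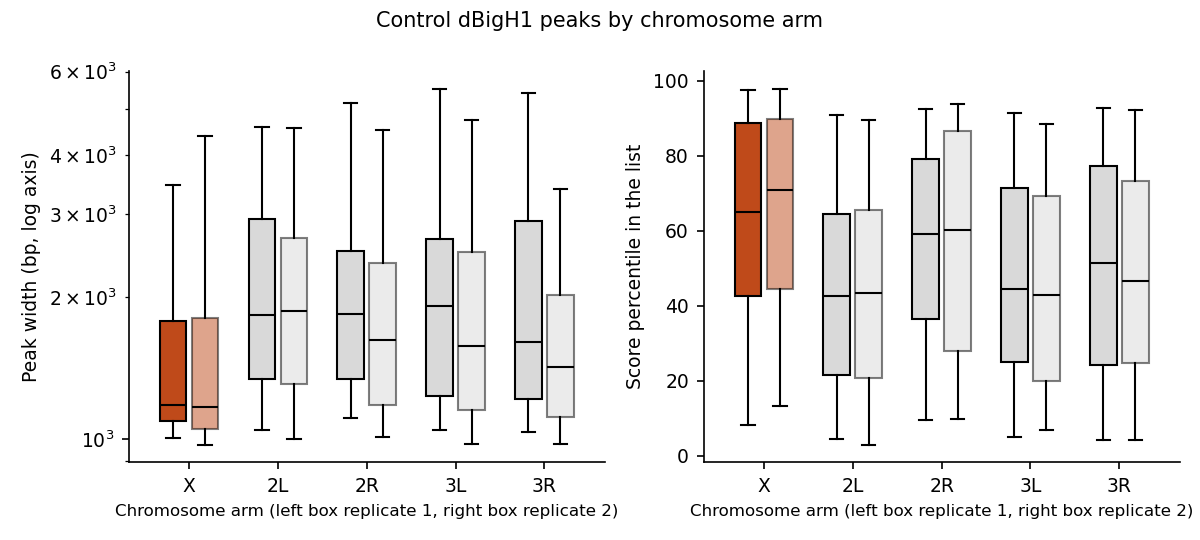
Width in bp (left, log axis) and score percentile within the list (right) of control dBigH1 peaks on X (coloured) and on 4 autosome arms (grey), with replicate 1 and replicate 2 side by side; boxes show the quartiles and median, and whiskers the 5th to 95th percentile. In both replicates X has the lowest median width, 1178.5 and 1169 bp, and the highest score percentiles.

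Most control X peaks came back in the other replicate. In each control dBigH1 list 88 X peaks recurred, which is 77.2% (95% interval 68.4 to 84.5) and 76.5% (67.7 to 83.9), against 60.8% and 50.6% over all chromosomes and 59.5% (54.7 to 64.1) and 47.1% (42.9 to 51.4) on the autosome arms. X was above each of the arms in both lists, the closest being 2R with 65.8% (54.3 to 76.1) and 67.5% (55.9 to 77.8), whose intervals overlapped those of X. The interval of 3R also overlapped that of X in the first list, with 65.5% (56.0 to 74.2), but not in the second, with 48.4% (40.2 to 56.6). Averaged over both lists X exceeded the arms by 23.6 points, with no test, since both lists count the same overlaps of 1 replicate pair. Peaks of 100 or more recurred, at any score in the other list, on X in 69 of 71 and 64 of 70 cases (97.2% and 91.4%) and on the arms in 76.1% and 78.6%. Low scorers, under 100, recurred on X in 44.2% and 53.3% and on the arms in 47.5% and 31.7%, so in the first list X did not exceed the arms at low scores.

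Recurring control peaks also matched closely in place and shape. The 88 pairs were all one to one, with a median shift between midpoints of 31 bp, a largest shift of 1204 bp and a median width ratio of 1.05. Their scores in the 2 lists had a Spearman rho of 0.81 over the 88 pairs, which is a description over peaks of 1 chromosome. The 26 and 27 X peaks without a partner had median scores of 71.3 and 71.6, against 152.9 and 150.4 for those with one, and none of them ranked among the first 100 of its list.

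**Figure D4:**
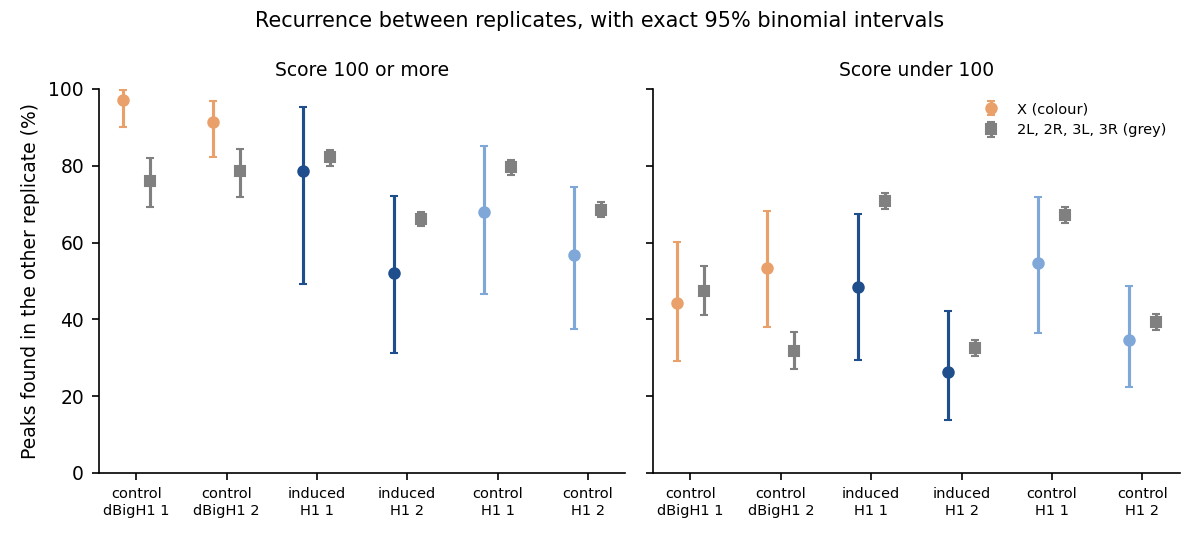
Share of peaks found again in the other replicate, in percent with exact 95% binomial intervals, for X (coloured circles) and 4 autosome arms (grey squares), split at a score of 100; the numbers 1 and 2 under the axis are replicates. Control dBigH1 peaks of 100 or more recur in 97.2% and 91.4% of cases on X and in 76.1% and 78.6% on the arms, whereas for H1 the points of X lie below those of the arms.

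When the 4 dBigH1 lists were merged wherever peaks overlapped by 1 bp or more, X had 143 regions. The 2 control libraries shared 88 that neither induced library had (61.5%, beside 27.2% of regions on all chromosomes and 23.3% on the autosome arms). A further 51 were held by 1 control library only (35.7%, beside 42% over all chromosomes). Both induced libraries and no control library held 1 region (0.699%, beside 2.45% over all chromosomes), 1 induced library alone held 1 (beside 22.2%), and 1 library of each condition held 2 (beside 3.72%). No X region was held by all 4 libraries (beside 0.317% over all chromosomes), and none by both libraries of 1 condition and 1 of the other (beside 2.06%). Thus 139 of the 143 regions (97.2%) were called in control cells alone, beside 69.3% over all chromosomes and 63.5% on the arms together. On 2R, where induced peaks were also few (8 and 13, beside 79 and 77 control peaks), this share was not counted separately. The 88 recurring control regions covered 160 kb, had a median width of 1256 bp, with 53 of them under 1.5 kb and 9 over 3 kb, and reached a score of 100 in both lists in 57 cases. All 22 windows held at least 1 of them, with the most, 10, in the window from 13 Mb.

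The best-ranked of these 88 were X:2683524-2687731 and X:2689529-2692769, 4.21 and 3.24 kb wide and 1.80 kb apart, and both had the score of 3100 in both control lists. The third with that score in both lists, and so tied with them in rank, was X:5788425-5796300, the widest of the 88 at 7.88 kb. Next by mean rank stood X:5589406-5591862, with scores of 1229 and 1119.

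The other 6 of the first 10 lay further apart. X:13533989-13536108 scored 1084 and 1276, and X:13731504-13733716, in the same crowded window, scored 1116 and 651. X:8602935-8604040, which is the only control peak between 8 and 9 Mb, scored 667 and 738 and ranked 18 and 14. X:16534267-16535468 scored 713 and 667, X:9539577-9540774 scored 601 and 635, and X:3188414-3189676 scored 417 and 734. The last 4 were each between 1.11 and 1.26 kb wide, near the median of all 88. The H1 peak nearest to any of the first 10 was 14.8 kb away, and for 5 of them the nearest H1 peak of any list was 653 kb or more away.

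Of the 5 widest control regions on X, X:5788425-5796300 and X:7591841-7598613 (6.77 kb, scores 331 and 149) were held by both control lists. The widest of all, X:19737631-19747897 with 10.3 kb, was called only in the second list, at a score of 50.07, next to the caller's threshold. X:2189760-2196917 (7.16 kb, score 189) and X:17188755-17195641 (6.89 kb, score 95.6) also came from the second list alone.

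The 5 induced dBigH1 peaks on X all lay in the window from 3 Mb, within a span of 392 kb. The first induced list had X:3469023-3474987 (5.97 kb, score 52.8, rank 166 of 196) and X:3483929-3486556 (2.63 kb, score 52.6, rank 167). The second had X:3094436-3097882 (3.45 kb, score 78.1, rank 88 of 238), X:3098689-3100409 (1.72 kb, score 68.5, rank 121) and X:3483629-3486601 (2.97 kb, score 76.8, rank 93). The peaks of the first list thus stood low in their list, and those of the second near the middle or above it. None reached 100, a score that 10.2% and 16% of the whole induced lists had. Only the peak at 3.48 Mb recurred, with midpoints 128 bp apart in the 2 lists. With so few peaks the recurrence of 1 in 2 and 1 in 3, beside 23% and 19.3% over all chromosomes, cannot be set against the other arms.

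Where induced dBigH1 was called on X, H1 was called too. The recurring region X:3483629-3486601 overlapped an H1 peak of the first induced library and of both control libraries, and in the second induced library the nearest H1 peak was 0.178 kb away. X:3469023-3474987 overlapped an H1 peak of the first induced library (score 216), with control H1 peaks 0.426 and 8.67 kb away. The pair at 3.09 to 3.10 Mb overlapped H1 peaks in all 4 H1 lists. By library of the same replicate number, 2 of 2 and 2 of 3 induced X peaks overlapped H1, against 55.5% and 57.9% on the autosome arms, and these counts are too small to separate X from the arms.

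The same place held control dBigH1 peaks, but mostly at other positions. The pair at 3.09 to 3.10 Mb overlapped 1 weak control peak each: X:3094436-3097882 met one of the first control list (score 52.2) and X:3098689-3100409 one of the second (score 82.3). Neither of the 2 regions at 3.47 to 3.49 Mb had a control dBigH1 peak nearer than 140.7 kb. Between these places, at X:3173653-3359899, the control lists had 11 and 6 dBigH1 peaks with scores up to 417 and 734, the induced dBigH1 lists had 0 and 0, and the 4 H1 lists had none, the limits of this interval being the edges of the neighbouring H1 groups. This run was part of the largest group of dBigH1 regions on X, 14 regions from 3.06 to 3.33 Mb.

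**Figure D5:**
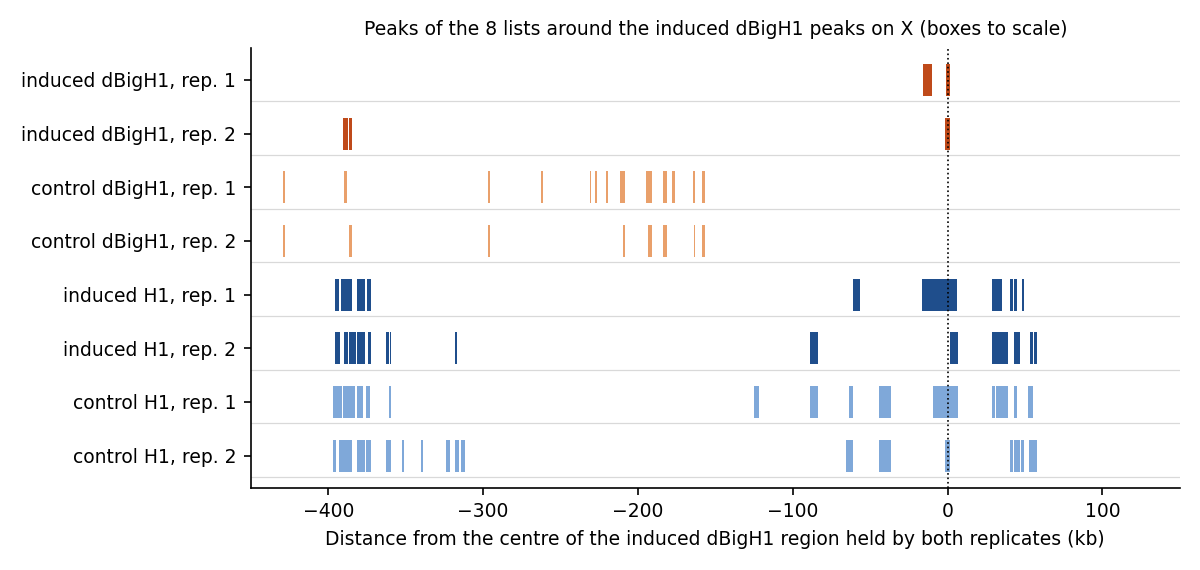
Peaks of the 8 lists, drawn to scale, by distance in kb from the centre of the dBigH1 region that both induced libraries held. Induced dBigH1 peaks lie beside or on H1 peaks, at the centre and far to its left, and the run of 11 and 6 control dBigH1 peaks between these places falls where no H1 list has a peak.

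Along X, H1 peaks stood in groups separated by long empty stretches. Over the 4 lists, H1 was called in 10 of the 22 windows, and 12 windows were empty in all 4. The longest stretch without a peak ran to 12.88 Mb in every list and was 7383 and 7008 kb long in induced and 7127 and 7117 kb in control cells. The window from 3 Mb held 15 and 22 H1 peaks in induced and 22 and 25 in control cells, and the window from 21 Mb 11 and 14 in induced and 13 and 24 in control cells. The 3 fullest windows of each list held 74.4% and 68.7% of X peaks in induced and 74.1% and 71.8% in control cells. Median gaps were 19.7 and 8.59 kb in induced and 16.1 and 7.12 kb in control cells, far below the gaps between dBigH1 peaks.

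Merging gave 120 H1 regions on X, of which 15 were held by all 4 libraries (12.5%, beside 21.7% of H1 regions over all chromosomes and 20.9% on the arms). Both induced libraries and no control library held 2 (1.67%, beside 3.07%), and both control libraries and no induced one held 10 (8.33%, beside 3.44%). A further 14 were held by both libraries of 1 condition and 1 of the other (11.7%, beside 20.8%), and 31 by 1 library of each condition (25.8%, beside 16%). A single induced library held 17 (14.2%, beside 18.6%) and a single control library 31 (25.8%, beside 16.4%). Recurrence of H1 peaks on X was 58.1% and 35.8% in induced and 60.3% and 42.4% in control cells, against 75.8% and 50.8% (induced) and 72.9% and 54.1% (control) on the arms; over all chromosomes it was 76.9% and 51% (induced) and 73.2% and 54.6% (control). X was lower than the arms together in each of the 4 lists, by 14.2 points on average and by 6.0 among peaks of 100 or more. The 2 lists of a condition count the same overlaps, so the exact sign-flip test was over 2 replicate pairs (p = 0.5, the smallest possible). Low H1 recurrence was not confined to X. On 2R it was 69.1% and 38.1% in induced and 67.1% and 39.4% in control cells, below the arms together in each list. X was above 2R in the second control list and below it in the others, and the binomial intervals of X and 2R overlapped in every list. Thus recurrence of H1 and of control dBigH1 peaks on X departed from the arms together in opposite directions. In neither case did the intervals set X apart from 2R.

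Of the 15 common H1 regions, 6 lay between 3.09 and 3.82 Mb. The first 4 were neighbours: X:3088307-3098368, X:3098663-3100551, X:3103420-3108692 and X:3109311-3112507. The third of these had scores of 231 and 222 in induced and 431 and 397 in control lists, the lowest mean rank of the 15. X:3527805-3529795 and X:3809612-3816266 completed the 6.

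A region alone in its surroundings, X:12878291-12880726, followed after the longest stretch without H1, with scores of 149.9 and 120 in induced and 91.8 and 90.3 in control lists. Between 14.7 and 15.2 Mb came X:14783362-14785087, X:15060023-15068030, X:15082950-15091548 and X:15094865-15102757. The second of these 4 had the highest X score of the second induced and the second control H1 list, 373 and 487. The last 4 common regions lay at the proximal end, at X:21116705-21120874, X:21324186-21329297, X:21377679-21383057 and X:21681380-21683274. Scores here are given for each list and are not compared between lists.

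H1 peaks on X did not stand out in width and tended to rank lower than on the arms. Median widths on X were 2532 and 1945 bp in induced and 2336.5 and 2213 bp in control cells, and on the arms 2405 and 2437.5 bp (induced) and 2178.5 and 2348 bp (control). The mean log2 width on X differed from that on the arms by 0.0023 on average (exact sign-flip p = 1), above it in 2 lists and below it in 2, and between induced and control cells by -0.03 (exact permutation p = 1). The score percentile of X peaks was below that of arm peaks in 3 of 4 lists, by 13.7 points at most and 6.90 on average, and 0.243 points above it in the first control list (exact sign-flip p = 0.25). The mean was -11.2 points without replicate 1 and -2.62 points without replicate 2. On 2R the peaks averaged the 43.1 and 43.5 percentile in induced and the 43.7 and 42.6 percentile in control lists. Those on X averaged 44.0 and 35.9 (induced) and 49.8 and 41.4 (control). X thus ranked above 2R in the first list of each condition and below it in the second. A score of 100 or more was reached by 32.6% and 37.3% of X peaks in induced and 43.1% and 35.3% in control lists, beside 44.2% and 54.9% of the whole induced and 46.7% and 50.7% of the whole control lists. The best-scoring X peak of the first control list was X:3475414-3483493, with 627, and no X peak was among the 10 highest of any H1 list.

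Control dBigH1 and H1 peaks rarely overlapped on X. Of 114 and 115 control dBigH1 X peaks, 2 in each list overlapped an H1 peak of the same replicate (1.75% and 1.74%, intervals 0.213 to 6.19 and 0.211 to 6.14), against 13.9% and 23.6% on the autosome arms (10.8 to 17.5 and 20.2 to 27.4). The low share was not confined to X: 2R had 3 of 79 and 3 of 77 (3.8% and 3.9%, intervals 0.790 to 10.7 and 0.811 to 10.97), and 3R had 5.31% in the first list (1.97 to 11.2) and 19.6% in the second. The intervals of 2R in both lists, and that of 3R in the first, overlapped those of X. H1 peaks were also sparser on X, where those of the control lists covered 0.795% and 1.04% of the length. The part of that in this difference was not tested. At the scale of 1 Mb windows the 2 were not apart. Windows with an H1 peak in any list held 7.1 and 6.9 control dBigH1 peaks on average, and windows without one 3.58 and 3.83. The median distance from a control dBigH1 X peak to the nearest H1 peak was 406 and 448 kb, and on the arms it was 26.2 and 15.1 kb. Sparser H1 peaks lengthen such distances wherever dBigH1 peaks lie, so the distances are no separate sign that the 2 keep apart on X. The 8 groups of 5 or more H1 regions, in which neighbours were less than 100 kb apart, spanned 1.16 Mb or 5.37% of X, and they held 6 of 114 and 6 of 115 control dBigH1 peaks (5.26% and 5.22%), which is near their share of the length. They held all 5 induced dBigH1 peaks.

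Taking every list together, 5 dBigH1 regions on X overlapped an H1 peak of any list. Of these, 4 were the induced regions described above. The fifth, X:21681486-21683265, was the only one of the 88 recurring control regions to do so: it scored 80.5 and 77.2 in the control dBigH1 lists and coincided with the most proximal of the common H1 regions, which all 4 H1 lists contained. For 66 of the 88 regions (75%) no H1 list had a peak within 100 kb. By single control dBigH1 peaks and the H1 list of the same replicate, 78.9% and 76.5% on X lay more than 100 kb from H1. On the arms it was 21.9% and 15.2%. H1 peaks were sparser on X, and the part of that in these shares was not tested.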

How the data were processed

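ChIP libraries of S2 cells were sequenced by the authors, and 1 peak list per immunoprecipitated library was analysed, without the 4 inputs. Bowtie 0.12.5, MACS 1.4.2 and the dm3 build (Release 5) are named in the submitters' processing notes; settings and the use of inputs are not given in the sources used here. The deposited score per peak is the authors' value. Positions are printed with starts counted from 1. Gene names were not placed, since the gene table used here is of Release 6, and no genome sequence was used.

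With Python 3.11.15, NumPy 2.4.6, SciPy 1.17.1, pandas 2.3.3 and matplotlib 3.10.9, X peaks were counted, placed in 1 Mb windows by midpoint and merged by overlap of 1 bp. Chromosome ends were the highest peak end in any list (21.7 Mb on X). Percentiles rank a score within its list. Libraries were compared by exact permutation or sign-flip tests, and p-values measure only the spread between libraries, which may be technical. Intervals are exact binomial (Clopper-Pearson). Named were the 10 best-ranked and 5 widest control dBigH1 regions, all induced ones, those overlapping H1, and H1 regions in all 4 libraries; other peaks named as the highest or alone in a window were chosen after their values were seen, as were the groups of regions under 100 kb apart. The members and lists were chosen with earlier results of these data known. Alternatives were a score of 100, joining peaks closer than 1000 bp, equal list lengths, 50% cover, other windows, each replicate left out and a replicate block.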

Additional observations from a re-analysis of the deposited data

How the results depend on the processing

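Of 126 alternative values for the comparisons, 103 kept their direction or size, 18 moved and 5 changed direction. The 103 include the values with a replicate block, which equal the main ones by construction. No test of 2 against 2 libraries could pass 0.05 under any alternative. The induced minus control X share of dBigH1 peaks stayed between -26.6 and -14.7 points, the log2 density difference of dBigH1 and H1 in control cells between 3.49 and 4.76, and the width difference of control dBigH1 peaks between X and the arms between -0.44 and -0.17. The score percentile difference between X and the arms stayed between 8.40 and 16.8 points for control dBigH1 and between -11.2 and -2.62 for H1. Equal list lengths turned the density difference of dBigH1 and H1 in induced cells to 0.0312. The H1 width difference between induced and control cells became 0.12 at a score of 100 or more and ran from -0.0823 to 0.0309 with a replicate left out; that between X and the arms became -0.22 with joined peaks and ran from -0.12 to 0.13 with a replicate left out. With scores of at least 100 there were 57 control and 0 induced dBigH1 regions, 6 control H1 regions, 3 H1 regions in all 4 libraries, an overlap of control dBigH1 with H1 of 0% and no induced dBigH1 X peak, so log2 ratios of induced dBigH1 number and density could not be computed. Equal list lengths gave 42 control dBigH1 regions, 0 induced H1 regions and an overlap with H1 of 0%; 50% cover gave 9 H1 regions in all libraries, and 0.5 Mb windows 5 without a control dBigH1 peak. With a replicate left out, where 1 library stands for each condition, the counts were 2 induced dBigH1 regions, 32 to 42 control and 18 to 23 induced H1 regions, and 23 to 40 H1 regions in all. The 10 best-ranked control regions kept their class in 4 of 4 alternatives. Of these, a score of 100 or more and equal list lengths could not have dropped them, since they were picked by score rank. The difference in recurrence between X and the arms, with alternatives chosen after seeing the data, stayed between 20.7 and 25.6 points for control dBigH1. For H1 it was -14.2 points in the main setting and smaller in size in every alternative, from -13.8 to -6.00. With the replicate block, the values equal those without it by construction (X share of dBigH1 -16.4 points, sign-flip p 0.5); same-numbered H1 lists deviated together over windows of X (correlation 0.52) and of the arms (0.65), a hint from the data only. The cause of these movements was not tested, and absence of a peak is limited by an unknown depth.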

Other observations

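On the scaffold XHet, which is not part of X here, only the second induced and the second control H1 lists had a peak, at XHet:1416-3145 with a score of 127 and at XHet:1440-3045 with a score of 83.1.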
